A study of Mus musculus with 8 samples.

Results

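The genes described here are 38 genes of the lysosome: its cathepsins and other proteases, its glycosidases and other hydrolases, the small proteins that activate them, and proteins of its membrane. A gene belonged to the set if the platform annotation gave its symbol to at least 1 probe set, and 38 of 38 listed genes did, of 8251 genes with a probe set of 1 symbol on the array. Where a gene had several, the brightest on average over the 8 arrays was used, and the 38 genes had 57 probe sets in all. The rule uses no measured difference.

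The cells were CD8+ dendritic cells purified from the spleens of female DBA/2J mice aged 60 days. All mice had received 10 µg of Flt3-L, a growth factor that expands dendritic cells, for 9 days, so every group carries that treatment and none is from untreated mice. After purification they were held for 4 or 16 hours in plain medium or in medium with mouse interferon gamma (IFN-γ) at 200 U/ml. Their total RNA was then measured on Affymetrix MG-U74Av2 arrays, 8 in all, with 2 for each of the 4 combinations of treatment and time. No uncultured cells are among them. No label says if replicate arrays stand for different animals or different cultures. The p-values therefore rest on the spread between arrays, and that spread could be technical only.

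Lysosomes are acidic organelles in which proteins, glycans, lipids and nucleic acids are taken apart by hydrolases that work at low pH. In dendritic cells the same compartments cut internalised antigen into peptides and trim the invariant chain from MHC class II, so that the protease content bears on how much antigen is destroyed and how much is kept for presentation. Many lysosomal genes are targets of the transcription factor TFEB and its relatives, which bind E-box sequences of the type CACGTG near gene starts. Part of the response to IFN-γ runs through interferon regulatory factors, which bind ISRE-type sites.

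Values below are log2 of the deposited intensity, and each is 1 probe set on 1 array. Levels of different genes are not compared, since the brightness of a probe set also depends on its probes. Of the 38 genes, 35 had group means above the antisense level, the median of the array's 15 antisense controls, which stands for signal without a matching transcript, in all 4 groups. Galc, which removes galactose from galactosylceramide, Idua, which removes iduronic acid from glycosaminoglycans, and Ppt1, which removes palmitate from proteins, were below it in all 4 groups, and no change can be read for them. The counts of the 38 genes below include these 3. Shares of all probe sets, given beside such counts, include many dim probe sets and were not matched for brightness. The median linear intensity of an array was 51.3 to 53.7 over all probe sets and 44.9 to 61.2 over its antisense controls. Replicate arrays differed more at 16 hours than at 4: at 4 hours the SD over all probe sets of array 2 minus array 1 was 0.170 (medium) and 0.176 (IFN-γ), and at 16 hours 0.241 and 0.311. The lysosomal genes shared in this. With IFN-γ at 16 hours, 30 of the 38 genes were higher on array 2 than on array 1, against 40.1% of all probe sets, with a median difference of 0.18. In medium at 16 hours this held for 25 of 38, against 42.5% of all probe sets. The ratio of the 3' to the 5' probe set of Actb, a measure of RNA and target quality, reached 2.04 and 2.20 in medium at 4 hours, while the 6 arrays of the other groups had 1.47 to 1.68. Medium at 4 hours is the control of comparisons below, and the part of this ratio in them was not tested.

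The labelled cell type was checked against marker genes. Of 11 measured CD8+ dendritic cell markers, 8 were above the antisense level in all groups, with Cd8a at group means between 8.80 and 8.99, Itgae and Zbtb46 below it in all 4, and Xcr1 below it in 3. Markers of other spleen cells were measured too, with 9 of 16 macrophage markers, 5 of 7 B cell markers, 6 of 6 T cell markers and 9 of 10 neutrophil markers above the antisense level in all groups. The macrophage genes Cd5l, Marco, Mertk, Mrc1 and Vcam1 were below it in all 4 groups. In these bulk samples, fewer cells of a type and less RNA per cell cannot be told apart.

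**Figure D1:**
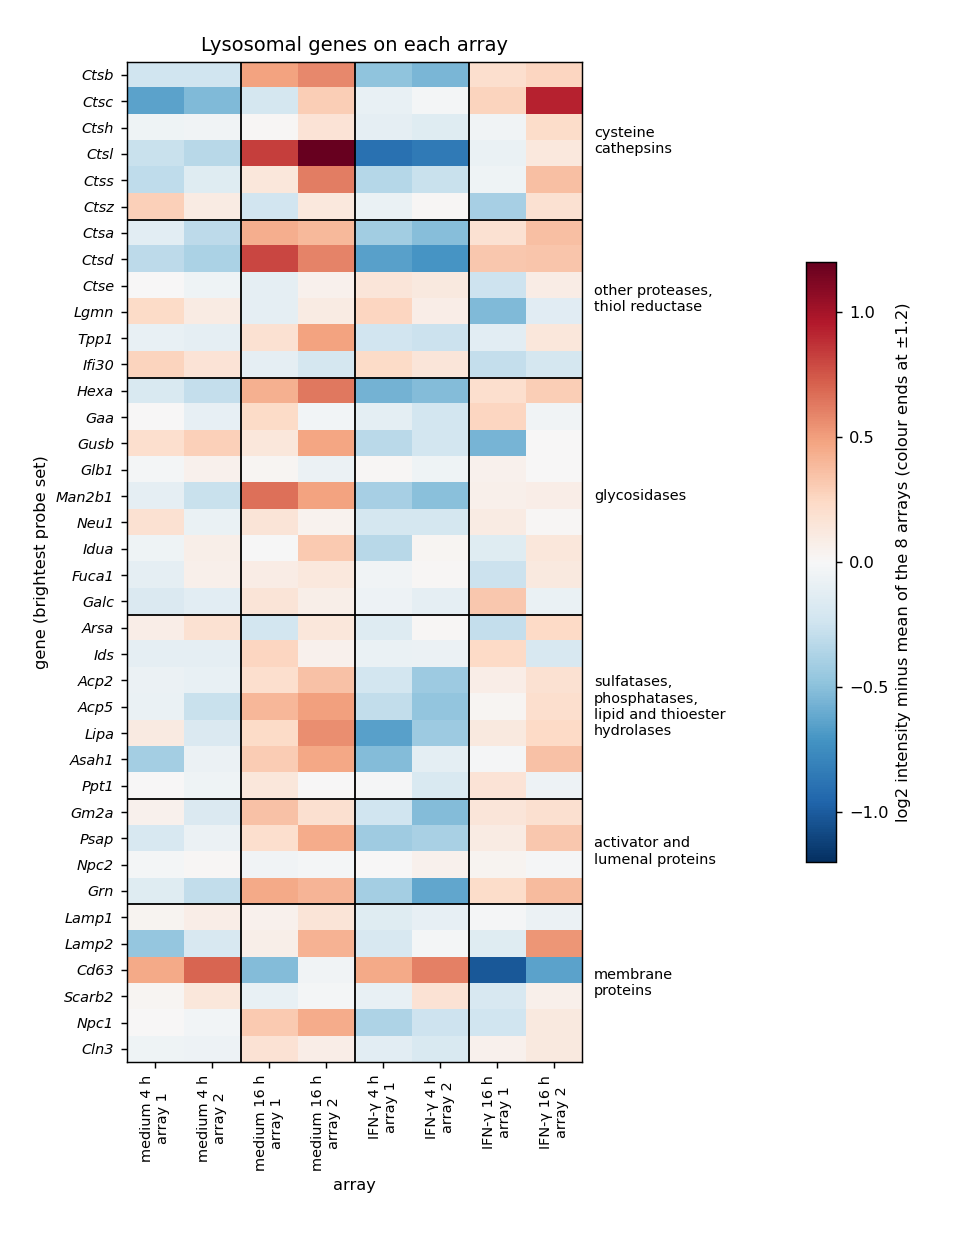
Heat map of the 38 lysosomal genes on the 8 arrays, coloured by log2 intensity minus the gene's mean over all arrays, with the genes ordered by role. The arrays at 16 hours are higher for Ctsd, Ctsb, Hexa and Grn in medium and with IFN-γ, and lower for Cd63.

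With time in culture, 5 soluble hydrolases and progranulin rose and the membrane protein Cd63 fell, in medium and with IFN-γ. In medium, 8 of the 38 genes were called higher at 16 than at 4 hours and 1 lower (limma with Benjamini-Hochberg adjustment over all probe sets, adjusted p under 0.05), against 1.71% of all probe sets called higher and 2.57% called lower. With IFN-γ, 8 were higher and 1 lower, against 0.821% and 1.3% of all probe sets. The genes called higher in both were Ctsa, Ctsb, Ctsd, Ctsl, Grn and Hexa, and the gene called lower in both was Cd63. The 2 comparisons share no arrays, but both come from 1 fit with a shared estimate of spread, so their calls are not independent. The 6 genes are 15.8% of the 38, while 0.483% of all probe sets were called higher in both and 0.99% lower in both. Acp5 and Man2b1 were called only in medium and Lipa and Psap only with IFN-γ, and the difference between the time effects was called for none of the 38 genes. Summed over the 38 genes, linear intensity in medium was 21426 and 21636 at 4 hours, then 24862 and 27104 at 16 hours. With IFN-γ it was 19808 and 19893 at 4 hours and 22135 and 24635 at 16 hours. Such sums are weighted toward the brightest probe sets. Among these are Psap (means of 11.45, then 11.90 in medium) and Ctss (10.76, then 11.36), neither called in medium.

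Most genes of the set that were not called had higher means at 16 hours as well. In medium, 29 of the 38 genes had a higher mean at 16 than at 4 hours, against 60.4% of all probe sets, with both 16-hour arrays above both 4-hour arrays for 23 and below them for 3, against 30.8% and 20.8% of all probe sets. The median difference of the 38 genes was 0.26, against 0.05 over all probe sets. With IFN-γ, 29 again had a higher mean at 16 hours, against 60.6%. Both arrays were above for 22 and below for 4, against 21.6% and 17.7% of all probe sets, and the medians were 0.25 and 0.05. Galc, Idua and Ppt1, below the antisense level in all groups, are among the 29 in both treatments. The difference between array 2 and array 1 correlated between groups, at 0.367 to 0.740 over all pairs of groups. With the array number as a replicate block the calls were 15 higher and 2 lower in medium, against 4.52% and 8.09% of all probe sets. With IFN-γ they were 15 higher and 3 lower, against 3.2% and 6.94%.

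**Figure D2:**
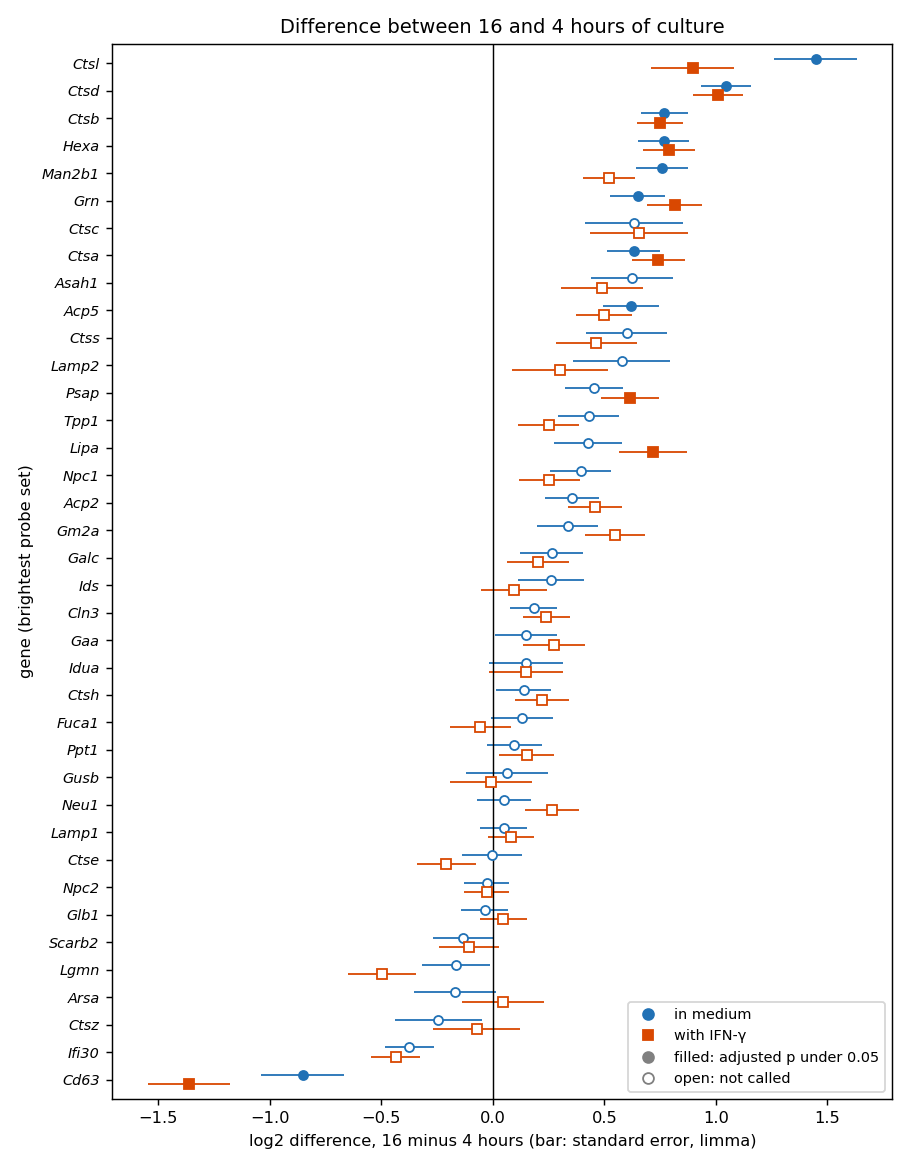
Difference in log2 intensity between 16 and 4 hours for each of the 38 genes, in medium and with IFN-γ, with the standard error of the fit (n = 2 arrays per group) and filled points where limma's adjusted p is under 0.05. Ctsl, Ctsd, Ctsb and Hexa lie far to the right in both, Cd63 lies far to the left in both, and Npc2 and Glb1 lie close to 0.

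The starts of several of these genes hold the E-box core CACGTG. RefSeq promoter windows of build GRCm38.p6, from 250 bases before to 50 bases after the start, were held for 33 of the 38 genes, in 39 windows, and not for Asah1, Ctsb, Ctse, Ctsh and Npc1. Read on both strands, 10 of the 39 windows, or 25.6%, held CACGTG, against 7.15% of 32851 windows of all genes. The longer TCACGTGA, which contains it, was in 4 windows, of Cln3, Ctsa, Ctsd and Ifi30, or 10.3%, against 0.974%. The 10 genes were Arsa, Cln3, Ctsa, Ctsd, Ctsl, Gaa, Glb1, Ifi30, Lamp1 and Lgmn. Of the 8 genes called higher with time in medium, 7 had a window and 3 of them held the core, and of the 29 not called, 25 had a window and 7 held it. The match is thus present in genes that rose and in genes such as Glb1 and Lamp1 that were not called. It is a description of letters and not of binding. The stretches below, 5′ to 3′ on the gene's strand with the E-box core in capitals, come from the 3 called genes that hold it and from Lamp1, which holds it at 4 places and was not called. They lie at chr13:64370724-64370770 (minus strand) for Ctsl, chr7:142388040-142388077 and chr7:142387893-142387952 (minus strand) for Ctsd, chr2:164833734-164833772 (plus strand) for Ctsa and chr8:13159073-13159160 (plus strand) for Lamp1.
Ctsl: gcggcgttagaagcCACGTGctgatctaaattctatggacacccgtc
Ctsd, far match: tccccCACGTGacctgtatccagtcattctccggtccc
Ctsd, near match: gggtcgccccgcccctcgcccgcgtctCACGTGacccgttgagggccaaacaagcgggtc
Ctsa: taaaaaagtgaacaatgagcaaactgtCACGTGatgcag
Lamp1: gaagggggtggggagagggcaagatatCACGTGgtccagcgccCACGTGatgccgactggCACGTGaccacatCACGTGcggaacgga

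The core begins 236 bases before the start in Ctsl, 245 and 98 bases before it in Ctsd, 12 bases before it in Ctsa, which holds it again from base 5 after the start, outside the stretch shown, and between 61 and 15 bases before it in Lamp1.

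Among the 6 cysteine cathepsins, Ctsl and Ctsb were called higher in medium and with IFN-γ, and none was called lower. Cathepsin L, the endopeptidase that finishes invariant chain removal in thymic epithelium, was at 6.69 and 6.63 in medium at 4 hours, 7.79 and 8.43 in medium at 16 hours, 6.07 and 6.11 with IFN-γ at 4 hours, and 6.88 and 7.09 with IFN-γ at 16 hours. Within each treatment the 16-hour arrays were clear of the 4-hour arrays, and within each time the IFN-γ arrays were below the medium arrays. Ctsl had the widest range of group means of the 38 genes, 2.02 on the log2 scale. It rose with time by 1.45 (SE 0.19, 2.73-fold, limma adjusted p = 0.00388) in medium and by 0.90 (SE 0.19, adjusted p = 0.0446) with IFN-γ. Cathepsin B, which cuts both within proteins and from their ends, was at 9.84 and 9.84, then 10.56 and 10.65 in medium, and at 9.60 and 9.53, then 10.28 and 10.34 with IFN-γ. All 16-hour arrays lay above all 4-hour arrays, whatever the treatment. Ctsb rose by 0.77 (SE 0.10, adjusted p = 0.00529) in medium and by 0.75 (SE 0.10, adjusted p = 0.00921) with IFN-γ.

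Cathepsin S, the main protease of invariant chain removal in dendritic and B cells, was at 10.68 and 10.84, then 11.12 and 11.60 in medium, and at 10.64 and 10.72, then 10.94 and 11.34 with IFN-γ. The groups did not overlap within a treatment, but array 2 stood well above array 1 at 16 hours, and the differences of 0.60 and 0.46 missed the threshold (limma adjusted p = 0.116 and 0.28), passing it with the replicate block (0.00699 and 0.0284). Cathepsin C, which activates granzymes by removing dipeptides, was at 7.21 and 7.32, then 7.64 and 8.15 in medium, and at 7.76 and 7.83, then 8.12 and 8.78 with IFN-γ. Its differences with time were 0.63 and 0.66 (adjusted p = 0.169 and 0.192, and 0.0159 and 0.0164 with the block). Cathepsin H, an aminopeptidase, kept between 9.76 and 10.13 on all 8 arrays. Cathepsin Z, a carboxypeptidase, was between 8.58 and 9.26, with 16-hour arrays that overlapped the 4-hour arrays in both treatments.

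Of the other proteases and the thiol reductase, Ctsd and Ctsa were called higher in both time comparisons. Cathepsin D, the main aspartic protease of lysosomes, was at 9.74 and 9.67 in medium at 4 hours, 10.86 and 10.65 in medium at 16 hours, 9.40 and 9.34 with IFN-γ at 4 hours, and 10.38 and 10.38 with IFN-γ at 16 hours. The 16-hour arrays were about 1 log2 unit above those at 4 hours, with no overlap. It rose by 1.05 (SE 0.11, 2.07-fold, limma adjusted p = 0.00196) in medium and by 1.01 (SE 0.11, 2.01-fold, adjusted p = 0.00354) with IFN-γ. Cathepsin A, a serine carboxypeptidase that also protects sialidase and beta-galactosidase from breakdown, was at 8.77 and 8.59, then 9.34 and 9.29 in medium, and at 8.48 and 8.39, then 9.09 and 9.27 with IFN-γ. Here too the lowest 16-hour array was above the highest 4-hour array. Ctsa rose by 0.63 (SE 0.12, adjusted p = 0.0216) in medium and by 0.74 (SE 0.12, adjusted p = 0.0167) with IFN-γ.

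The other 4 members of this group had no call in the plain fit. Ifi30, the IFN-γ-inducible thiol reductase that opens disulfide bonds of antigen, was at 10.83 and 10.72, then 10.45 and 10.34 in medium, and at 10.79 and 10.70, then 10.27 and 10.35 with IFN-γ. Every 16-hour array lay below every 4-hour array, but the differences of -0.38 and -0.44 missed the threshold (limma adjusted p = 0.103 and 0.0855) and passed it with the replicate block (0.0253 and 0.015). Legumain, encoded by Lgmn, which cuts after asparagine, was at 8.66 and 8.53, then 8.33 and 8.53 in medium, where the times met at 8.53, and at 8.69 and 8.51, then 7.90 and 8.29 with IFN-γ, where they did not. Its difference of -0.50 with IFN-γ had an adjusted p of 0.15, and 0.0448 with the block. Ctse, an aspartic protease of endosomes, was between 9.61 and 10.01 on all arrays. The tripeptidyl peptidase Tpp1 was at 7.74 and 7.72, then 8.01 and 8.31 in medium, a difference of 0.43 (adjusted p = 0.134, and 0.0296 with the block), and at 7.60 and 7.57, then 7.71 and 7.97 with IFN-γ, so that its 16-hour arrays were above its 4-hour arrays in both treatments.

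**Figure D3:**
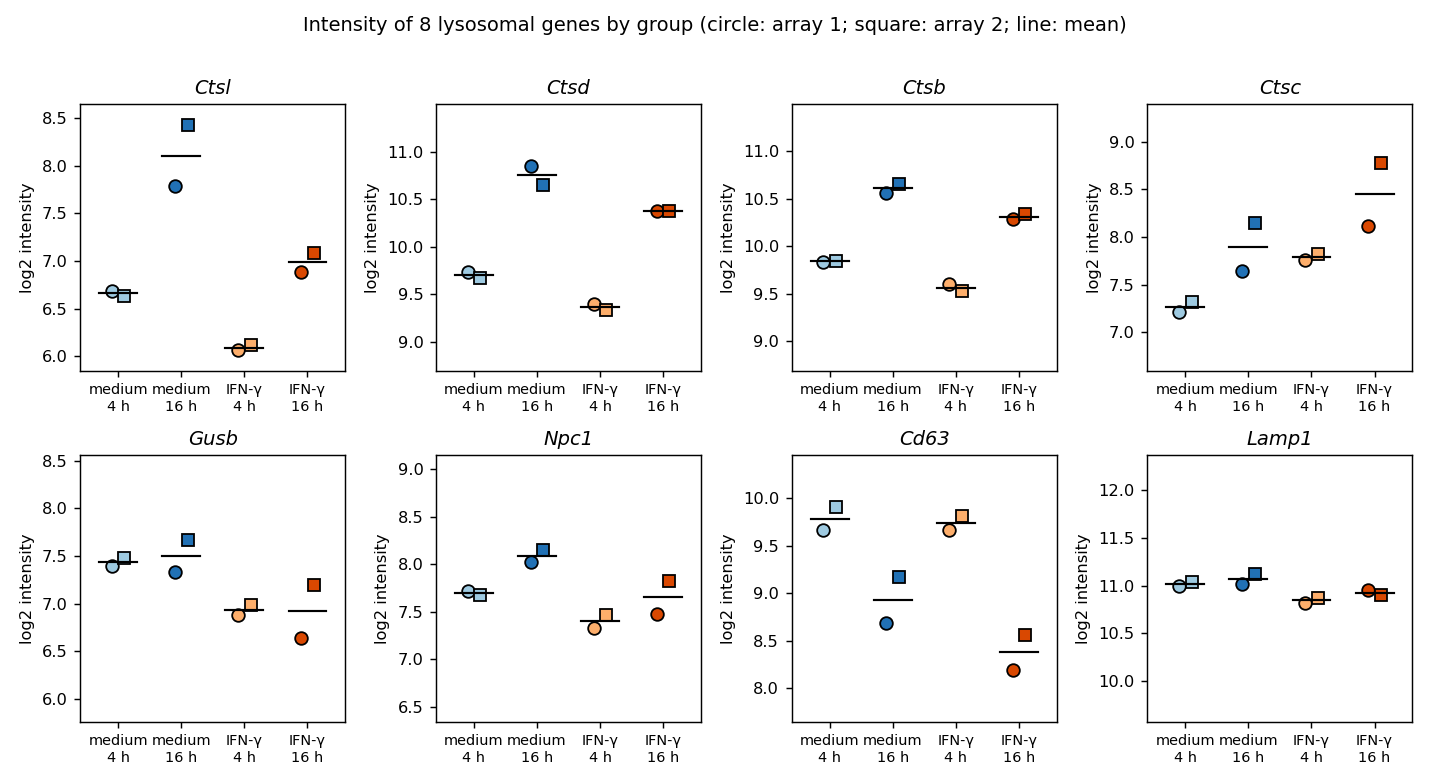
Log2 intensity of selected lysosomal genes on each of the 8 arrays, with the group mean as a bar and 2 arrays per group. Ctsl and Ctsd are higher at 16 hours, with the IFN-γ arrays below the medium arrays of the same time, while Cd63 is lower at 16 hours.

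Of the 9 glycosidases, Hexa was called higher in both time comparisons and Man2b1 in medium. Hexa, the alpha subunit of the hexosaminidase that breaks down gangliosides, was at 7.65 and 7.54, then 8.26 and 8.46 in medium, and at 7.27 and 7.31, then 8.03 and 8.13 with IFN-γ. The 16-hour arrays lay above the 4-hour arrays in both treatments. It rose by 0.77 (SE 0.12, limma adjusted p = 0.00838) in medium and by 0.79 (SE 0.12, adjusted p = 0.0115) with IFN-γ. Man2b1, the lysosomal alpha-mannosidase, was at 8.71 and 8.55, then 9.48 and 9.30 in medium, and at 8.42 and 8.32, then 8.88 and 8.90 with IFN-γ, again without overlap. It rose by 0.76 (SE 0.12, adjusted p = 0.00883) in medium, and with IFN-γ the difference was 0.52 (adjusted p = 0.0609, and 0.00663 with the block).

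None of the other glycosidases was called with time. Glb1, the beta-galactosidase, was between 6.32 and 6.44 on all 8 arrays, and its range of group means, 0.05, was the narrowest of the 38 genes. Gaa, which breaks down glycogen, was between 8.22 and 8.70, and Fuca1, a fucosidase, between 7.20 and 7.58. Gusb, the beta-glucuronidase, was at 7.40 and 7.48, then 7.33 and 7.67 in medium, and at 6.88 and 6.98, then 6.64 and 7.20 with IFN-γ, so that times overlapped and treatments did not. The sialidase Neu1 was between 5.63 and 6.03, near the antisense level.

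Among the sulfatases, phosphatases and lipid hydrolases, Acp5 was called higher in medium and Lipa with IFN-γ. Acp5, the tartrate-resistant acid phosphatase of osteoclasts and macrophages, was at 7.56 and 7.37, then 8.04 and 8.13 in medium, and at 7.34 and 7.17, then 7.67 and 7.84 with IFN-γ. The 16-hour arrays were above those at 4 hours in both treatments. Acp5 rose by 0.62 in medium (SE 0.13, limma adjusted p = 0.0287), and with IFN-γ the difference was 0.50 (adjusted p = 0.0849, and 0.019 with the block). Lipa, the acid lipase that frees cholesterol and fatty acids, was at 6.32 and 6.04, then 6.45 and 6.77 in medium, and at 5.56 and 5.78, then 6.33 and 6.45 with IFN-γ, and the 4-hour arrays with IFN-γ were the lowest of all. It rose by 0.72 with IFN-γ (SE 0.15, adjusted p = 0.0487), and in medium the difference was 0.43 (adjusted p = 0.182). With IFN-γ at 4 hours its mean of 5.67 was near the antisense level of 5.61, so differences from that group are uncertain in size.

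Asah1, the acid ceramidase, was at 6.05 and 6.39, then 6.77 and 6.92 in medium, and at 5.94 and 6.34, then 6.45 and 6.81 with IFN-γ. Array 2 was above array 1 in every group, so the differences of 0.62 and 0.49 missed the threshold in the plain fit (limma adjusted p = 0.105 and 0.252) and passed with the replicate block (0.00239 and 0.0105). Acp2, an acid phosphatase, was at 6.81 and 6.79, then 7.08 and 7.23 in medium, and at 6.65 and 6.44, then 6.95 and 7.06 with IFN-γ, where a difference of 0.46 had an adjusted p of 0.0965, and 0.0221 with the block. The iduronate sulfatase Ids was between 6.99 and 7.44 and the sulfatide sulfatase Arsa between 5.59 and 6.12, with no call in either comparison.

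Of the 4 activator and lumenal proteins, Grn was called higher in both time comparisons and Psap with IFN-γ. Grn, progranulin, which is cut into granulins in the lysosome, was at 8.81 and 8.66, then 9.41 and 9.36 in medium, and at 8.54 and 8.32, then 9.17 and 9.33 with IFN-γ. The times did not overlap. It rose by 0.65 (SE 0.12, limma adjusted p = 0.0225) in medium and by 0.82 (SE 0.12, adjusted p = 0.0133) with IFN-γ. Psap, the precursor of the saposins that present sphingolipids to their hydrolases, was at 11.39 and 11.52, then 11.78 and 12.03 in medium, and at 11.16 and 11.20, then 11.68 and 11.90 with IFN-γ. All 4 arrays at 16 hours were above all 4 arrays at 4 hours. Psap rose by 0.62 with IFN-γ (SE 0.13, adjusted p = 0.0487), and in medium the difference was 0.45 (adjusted p = 0.0987, and 0.0111 with the block).

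Gm2a, the activator protein of ganglioside breakdown, was at 8.93 and 8.71, then 9.23 and 9.07 in medium, and at 8.64 and 8.35, then 9.02 and 9.07 with IFN-γ. Its difference of 0.55 with IFN-γ had a limma adjusted p of 0.0826, and 0.00843 with the block. Npc2, which hands cholesterol to the membrane protein Npc1, was between 11.59 and 11.69 on all 8 arrays.

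Of the 6 membrane proteins, Cd63 fell and none was called higher. Cd63, a tetraspanin of late endosomes and exosomes, was at 9.66 and 9.91 in medium at 4 hours, 8.69 and 9.17 in medium at 16 hours, 9.66 and 9.82 with IFN-γ at 4 hours, and 8.19 and 8.56 with IFN-γ at 16 hours. All 16-hour arrays were below all 4-hour arrays, and the lowest were the 2 with IFN-γ. Cd63 fell by 0.85 on the log2 scale (SE 0.19, limma adjusted p = 0.0379) in medium and by 1.36 (SE 0.19, adjusted p = 0.00853) with IFN-γ. Lamp2, a heavily glycosylated membrane protein needed for autophagy, was at 6.97 and 7.24, then 7.51 and 7.85 in medium, and at 7.24 and 7.41, then 7.29 and 7.97 with IFN-γ. Its difference in medium was 0.58 (adjusted p = 0.208, and 0.0113 with the block), and with IFN-γ the times overlapped. Npc1, the cholesterol exporter, was at 7.71 and 7.68, then 8.02 and 8.15 in medium, and at 7.33 and 7.46, then 7.47 and 7.83 with IFN-γ. Its difference in medium was 0.39 (adjusted p = 0.17, and 0.0377 with the block). Lamp1, an abundant protein of the lysosomal membrane, was between 10.82 and 11.12 on all arrays, Scarb2, which carries glucocerebrosidase to lysosomes, between 7.17 and 7.53, and Cln3, the membrane protein affected in Batten disease, between 7.19 and 7.55.

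The number of calls depended on single arrays. The share of all probe sets called with an array left out was not counted, so the counts here have no background. In medium, 2 of the 38 genes were called higher without either array of medium at 4 hours, 4 without either of medium at 16 hours and 12 without either of IFN-γ at 16 hours. With IFN-γ, 1 was called without array 1 and 0 without array 2 of IFN-γ at 4 hours, and 5 without array 2 of IFN-γ at 16 hours or either array of medium at 4 hours. Over the 8 fits that leave out an array, Ctsd and Ctsl kept their call in medium in all 8, Ctsb in 6, Hexa and Man2b1 in 5, Grn in 4, Cd63 in 3, and Ctsa and Acp5 in 2. With IFN-γ, Ctsd kept its call in 7, Ctsa, Ctsb, Grn, Hexa and Cd63 in 6, Psap in 3, and Ctsl and Lipa in 2. The direction did not turn in any of these fits.

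Macrophage markers moved with time in the same direction as the hydrolases. Of 16 measured, 11 were called higher and 1 lower in medium and 8 higher and 1 lower with IFN-γ, with median differences of 0.92 and 0.71. The 16 include the 5 genes below the antisense level in all groups, for which no change can be read. Some of these 5 must be among the 11 called higher in medium. Of the readable markers, Cd14 stayed at a mean of 9.36 there, and Spic fell from 6.30 to 5.28. Of all probe sets, 1.71% were called higher and 2.57% lower with time in medium. Under IFN-γ these shares were 0.821% and 1.3%. Summed over the 16 markers, linear intensity was between 2573 and 2708 in medium at 4 hours and between 5407 and 6177 at 16 hours. With IFN-γ it was between 1910 and 1968 at 4 hours and between 3846 and 4618 at 16 hours. The CD8+ dendritic cell markers summed to between 4365 and 4564 in medium at 4 hours, 3471 and 3683 at 16 hours, and with IFN-γ to between 4805 and 5051, then 3658 and 4289. Markers of other cells differed with time too. Of 6 markers of CD11b+ dendritic cells and monocytes, 3 were called higher in medium and 1 with IFN-γ, with medians of 0.69 and 0.41. Of 7 B cell markers, 2 were called higher in medium and 1 with IFN-γ (7 with the block), with medians of 0.34 and 0.47. Of 4 red blood cell markers, 2 were called lower in each treatment, and of 10 neutrophil markers 1 was called lower in medium. Below the antisense level in all groups were 3 of the 4 red blood cell markers, among them the called Hbb-b2. The same held for 2 of the 7 B cell markers, and no change can be read for such genes. The part of these lists in the lysosomal differences was not tested.

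IFN-γ itself gave no called change among the 38 genes at either time. At 4 hours limma called 0 of 38 in either direction, against 0.258% of all probe sets called higher and 0% called lower. At an unadjusted p under 0.05 there were 1 higher and 8 lower, and with the replicate block 0, against 1.09% of all probe sets called higher and 0.177% lower. At 16 hours limma again called 0, against 0.161% called higher and 0.0966% called lower, with 1 higher and 10 lower at an unadjusted p under 0.05. No share of all probe sets was counted at the unadjusted limit, here or below, so these unadjusted counts have no background. With the replicate block Ctsl, Cd63 and Man2b1 were called lower and 0 genes higher at 16 hours, against 0.435% and 0.411% of all probe sets. The group means nonetheless lay to one side. At 4 hours 30 of 38 genes were lower with IFN-γ, against 52.8% of all probe sets, with both IFN-γ arrays below both medium arrays for 22 and above for 5, against 17.9% and 15.4%. At 16 hours 31 were lower, against 51.2%, with both arrays below for 16 and above for 1, Npc2, against 9.85% and 9.1%. The median differences were -0.15 at 4 hours and -0.13 at 16 hours, against -0.01 and 0.00 over all probe sets.

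**Figure D4:**
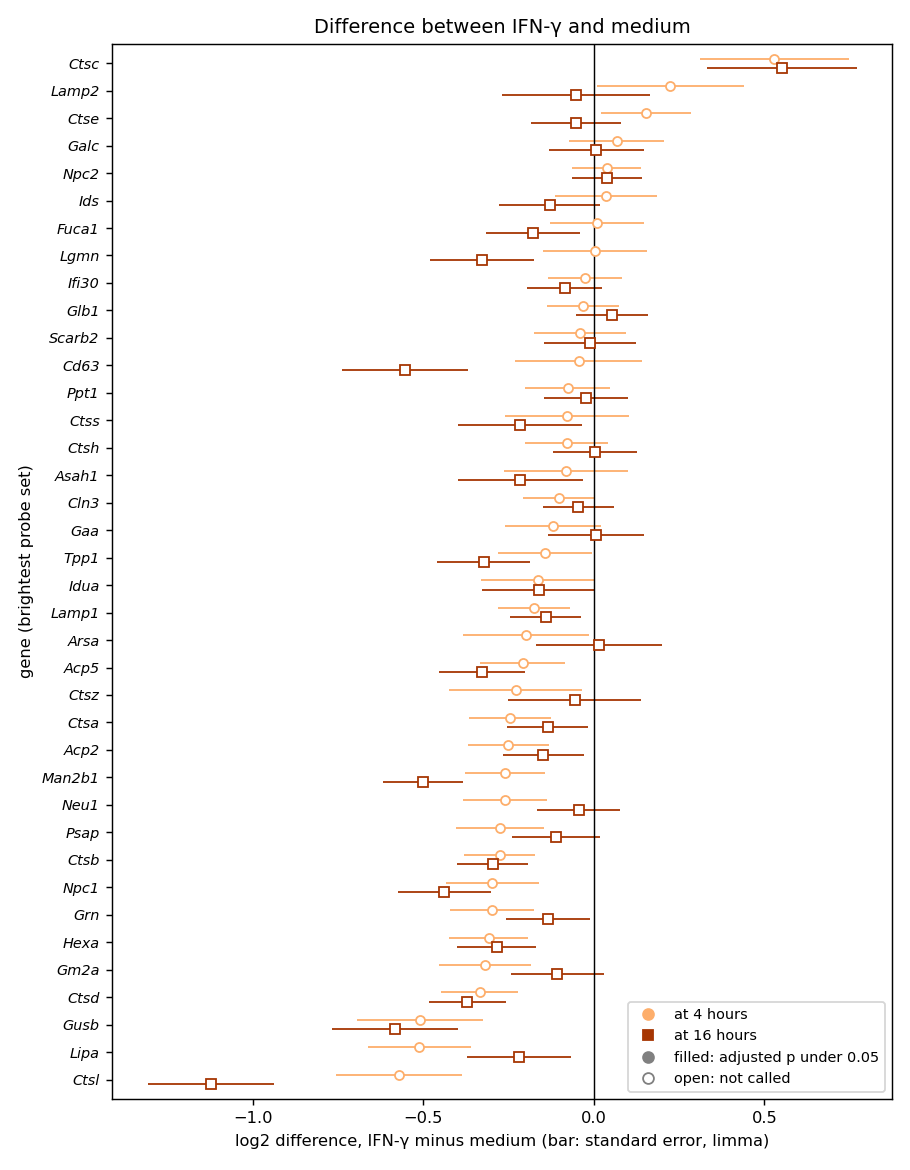
Difference in log2 intensity between IFN-γ and medium for each of the 38 genes, at 4 and at 16 hours, with the standard error of the fit (n = 2 arrays per group). Most points lie left of 0 at both times, with Ctsl farthest left at 16 hours and Ctsc farthest right at both.

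The 4-hour and 16-hour comparisons use separate arrays. Of the 38 genes, 26 were lower with IFN-γ at both times, or 68.4%, against 27.8% of all probe sets, and 3 were higher at both, or 7.89%, against 23.9%. Among the 26 are Idua and Ppt1, and among the 3 is Galc, all below the antisense level in all groups. For 14 genes, or 36.8%, both IFN-γ arrays were below both medium arrays at each time, against 3.08% of all probe sets, and for 0 genes were they above at each time, against 2.06%. The difference between the effects at 16 and 4 hours was called by limma for 0 of 38 genes and 0% of all probe sets. With the replicate block it was again called for 0 of 38, against 0.242% of all probe sets called lower, and 0 reached an unadjusted p under 0.05.

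The largest differences with IFN-γ were those of Ctsl, at each time on the lower side. Ctsl differed by -0.57 (SE 0.19, limma adjusted p = 0.636) at 4 hours and by -1.12 (SE 0.19, adjusted p = 0.0592, and 0.00486 with the block) at 16 hours, where the mean in medium was 2.18-fold that with IFN-γ. Of the 8 fits that leave out an array, 1 called it at 16 hours, that without array 1 of medium at 16 hours (-1.44, adjusted p = 0.0116), and without array 2 of that group the difference was -0.81 (adjusted p = 0.18). Gusb differed by -0.51 and -0.58 (adjusted p = 0.826 and 0.844), and every IFN-γ array was below every medium array. Man2b1 differed by -0.50 at 16 hours (adjusted p = 0.284, and 0.0382 with the block). For Cd63 the differences were -0.04 at 4 hours and -0.55 at 16 hours (adjusted p = 0.974, and 0.0382 with the block). Ctsd differed by -0.33 and -0.37, Npc1 by -0.30 and -0.44 and Hexa by -0.31 and -0.28, and for each of these genes the IFN-γ arrays were below the medium arrays at both times. Lipa differed by -0.51 at 4 hours (adjusted p = 0.497), with its IFN-γ mean near the antisense level. Against these, Ctsc was higher with IFN-γ by 0.53 at 4 hours, where its arrays did not overlap, and by 0.55 at 16 hours, where they did, and neither passed. Ifi30, although named for its induction by IFN-γ, differed by -0.03 at 4 hours and -0.09 at 16 hours.

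The same promoter windows were read for the ISRE-type motif, GAAA, then 2 bases of any kind, then GAAA, on both strands. It was in 2 of the 39 windows, or 5.13%, against 3.44% of all windows, in Ctss and Lamp1. Shown, with the match in capitals and 5′ to 3′ on the plus strand, is that of Ctss, whose product removes the invariant chain, at chr3:95526738-95526785.
Ctss: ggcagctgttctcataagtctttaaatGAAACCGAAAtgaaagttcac

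Beside this match, Ctss differed by -0.08 and -0.22 with IFN-γ at 4 and 16 hours, and no adjusted p was under the threshold.

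The mean effect of IFN-γ over both times was fitted after the values had been seen. In it Ctsl was called lower, by -0.85 (SE 0.13, limma adjusted p = 0.0267), as 1 of 38 genes, against 0.161% of all probe sets called lower and 0.314% higher. The call was lost without either array of medium at 4 hours (adjusted p = 0.163 and 0.127), either array of IFN-γ at 4 hours (0.141 and 0.132) or array 1 of IFN-γ at 16 hours (0.0529). With the replicate block 5 genes were called lower and 1 higher, against 0.652% and 0.877% of all probe sets. The 5 were Ctsl (adjusted p = 0.00186), Gusb (-0.55, 0.0108), Man2b1 (-0.38, 0.0163), Ctsd (-0.35, 0.0253) and Npc1 (-0.37, 0.0427), and Ctsc was higher (0.54, 0.0253). Macrophage markers were mostly lower with IFN-γ as well: in this mean effect 13 of 16 lay lower and 3 higher. Called lower were 3 (5 with the block), among them Lyz2, the lysozyme of myeloid cells, and Csf1r, the receptor of macrophage growth factor, and 0 were called higher. C1qb and C1qc had higher means with IFN-γ than in medium at both times. The part of the macrophage markers in the values of the lysosomal genes was not tested.

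Other genes of the lysosomal pathway were counted by lists. Of 10 other hydrolases, Hgsnat, below the antisense level in all groups, was the only call with time in medium (0.64, limma adjusted p = 0.0424, with 2 higher and 1 lower in the block fit), and 0 were called with IFN-γ (3 with the block). Of 12 other membrane proteins, 2 were called higher (3 in medium and 4 with IFN-γ in the block fit) and 1 lower in each treatment: Cd68, the macrosialin of phagocytes (1.21 in medium and 0.97 with IFN-γ), Slc11a1, a metal ion transporter of phagosomes (1.09 and 1.22), and Laptm4b, a late endosomal protein, which fell by 1.53 and 1.48. The 15 subunits of the proton pump that acidifies the lumen gave 0 calls with limma, with medians of 0.02 in medium and 0.04 with IFN-γ and, at an unadjusted p under 0.05, 0 genes in medium and 1 each way with IFN-γ. With the block 1 subunit was called lower with IFN-γ. Of 17 genes that sort enzymes to lysosomes, Lrp1 was called higher with time under IFN-γ (0.67, adjusted p = 0.0236), and with the block 1 was called higher in medium and 1 each way with IFN-γ. The 5 transcription factors measured gave 0 calls with time in limma, 0 with the block and 0 at an unadjusted p under 0.05. Tfeb itself was at 6.58 and 6.32, then 6.40 and 6.10 in medium, with overlapping times, and at 6.10 and 5.94, then 6.45 and 6.21 with IFN-γ. Of 4 inhibitors of cathepsins, Cst3, cystatin C, differed by -0.45 and -0.66 with time (adjusted p = 0.137 and 0.0516, and 0.0407 and 0.00795 with the block). Of 12 MHC class II and peptide loading genes, 0 were called with time in medium (limma, 3 higher with the block and 5 higher at an unadjusted p under 0.05) and 3 higher with IFN-γ, H2-DMa (0.63, adjusted p = 0.0222), H2-DMb1 (0.54, 0.0361) and H2-Oa (0.53, 0.0376). Of the 75 genes on these lists, limma called 0 for IFN-γ against medium at 4 or at 16 hours, also with the block, and 4 and 2 had an unadjusted p under 0.05.

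Dimmer probe sets of the same genes gave fewer calls. There were 19 of them, for 13 of the 38 genes, and 12 were below the antisense level in all 4 groups. In medium 5 dimmer probe sets, of Ctsb, Grn, Hexa and Man2b1, missed the threshold with time where the brightest passed, all with a difference of the same sign. A dimmer probe set of Ctsb was called as well (0.82, limma adjusted p = 0.036). With IFN-γ 7 missed it, of Ctsb, Grn, Hexa and Psap, again all of the same sign. Below the antisense level in all groups were 4 of the 5 in medium, but only 3 of the 7 with IFN-γ. The dimmer Grn probe set was below it in no group. It differed by 0.25 in medium (limma adjusted p = 0.359) and 0.12 with IFN-γ (0.698), against 0.65 and 0.82 for the brightest. A dimmer probe set of Psap had calls that the brightest lacked. It was at 5.21 and 5.04 in medium at 4 hours, below the antisense level there, at 6.69 and 6.52 in medium at 16 hours, at 6.12 and 6.09 with IFN-γ at 4 hours, and at 6.28 and 6.44 with IFN-γ at 16 hours. The 2 arrays of medium at 4 hours were lowest, clear of the other 6. This probe set was called higher with time in medium (1.48, adjusted p = 0.000465) and with IFN-γ at 4 hours (0.98, adjusted p = 0.0131), where the brightest Psap probe set differed by 0.45 and -0.28 without a call. Its difference between the IFN-γ effects at 16 and 4 hours was -1.23 (adjusted p = 0.189, and 0.0137 with the block) and its mean IFN-γ effect 0.37 (0.184, and 0.0409 with the block). The dimmer Ctsb probe set called in medium differed by -0.73 with IFN-γ at 16 hours (adjusted p = 0.334, and 0.0461 with the block) and by -0.49 in the mean effect (0.257, and 0.039 with the block). The files do not say which transcripts either probe set detects.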

How the data were processed

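RNA was measured on 8 arrays, 2 in each of 4 groups taken from the sample titles, whose number limits the precision. Per the values, the authors deposited intensity per probe set with no log taken, between 2.65 and 12523. The submitters' processing notes name RMA, whose version and options are not given in the sources used here. RMA as published subtracts background, makes the arrays' distributions equal and combines probes on a log scale, so that low values are compressed. From the deposited intensity, log2 was taken with no pseudocount and no further normalization. Median intensity was between 51.3 and 53.7 on the 8 arrays.

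The array's 66 controls were dropped from its 12488 probe sets, and 12422 were tested. Names came from the platform annotation, checked by gene number against RefSeq (GRCm38.p6). They gave 1 symbol for 10833 probe sets, several for 396 and none for 1193. Each gene was read from its brightest probe set, and other probe sets are given where their call differs. Every gene of the set is named, and of other lists at most 4 called genes.

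Differences were tested with limma 3.58.1 in R 4.3.3 on 4 group means over all 8 arrays (two-sided, eBayes), with Benjamini-Hochberg adjustment over all 12422 and called at 0.05. The scripts were tested on simulated data. Replicate numbers pair the arrays: the difference between array 2 and array 1 correlated between groups in all 6 pairs of groups, at 0.367 to 0.740. No label states this pairing. Values with the replicate block are given where they change the call of a named gene of the set or a count of its calls by over 1.5 times, and for some other lists. Other settings tried were the replicate block, a threshold of 0.01, 1 mean per gene, quantile normalization, centring on the median, a filter on the dimmest 40%, a trended robust prior, a fit to the compared arrays alone, and dropping each array in turn. A fit without both 16-hour arrays of a number was added after the data were seen. Of the promoter motifs searched, 1 is not reported here. The genes, the lists and the tests were chosen with earlier results of these data known.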

Additional observations from a re-analysis of the deposited data

How the results depend on the processing

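Of 4010 single-gene values over all alternatives, 3857 kept their side of the threshold, 66 passed it newly and 87 lost it. The sign turned for 188, called neither in the reported fit nor in the alternative, with reported differences of at most 0.30, and for 0 that were called in either. Counts of the 38 genes moved more. The share of all probe sets called was counted only for the reported fit and for the block. Higher with time in medium (8 genes): 15 with the replicate block, 5 at a threshold of 0.01, 13 without both 16-hour arrays of number 1, and 2 to 12 when an array was left out. Lower in medium (1): 2 with the block, 0 at 0.01, 0 without number 1 at 16 hours, and 0 to 1. Higher with time under IFN-γ (8): 5 with median centring, 5 with only the arrays compared, 15 with the block, 2 at 0.01, 4 with 1 mean per gene, and 0 to 8. Lower under IFN-γ (1): 2 with the trended prior, 3 with the block, 3 without number 2 at 16 hours, and 0 to 2. Lower with IFN-γ at 4 hours (0): 1, Ctsl, with only the arrays compared, and 1 without both 16-hour arrays of number 1 or of number 2. Lower with IFN-γ at 16 hours (0): 1 with quantile normalization, 1 with the trended prior, 1 without number 1 at 16 hours, 3 with the replicate block, and 0 to 1. In the mean effect of IFN-γ, higher (0) gave 1 with the block, 1 without number 1 at 16 hours, and 0 to 1, and lower (1) gave 5 with the block, 0 at 0.01, 2 without number 2 at 16 hours, and 0 to 2. The cause was not tested. A fit of only the arrays compared does not apply to the difference of effects or to the mean effect, and Galc, Idua and Ppt1 had no value once the dimmest 40% were left out.

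With 2 arrays a group, the count of calls rests on the fit, and a lone array was assumed to vary like those of other groups. Genes below the antisense level give no change that can be read.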
